A study of Mus musculus with 12 samples.

Results

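Integrins, laminins and nidogens were followed in mouse embryonic fibroblasts (MEFs) driven towards a cardiac state by sets of transcription factors. The members were every gene whose symbol names an integrin alpha or beta chain, a laminin chain or a nidogen. Membership used no measured value, while the probe set of each gene was chosen by its mean signal. Of the 12393 genes with a probe set of their own on the array, 34 were members, comprising 22 integrin chains, 10 laminin chains and 2 nidogens, with 60 of the 22626 probe sets tested. Itga2b and Itgb2l were counted as integrin chains, and 4 genes named after proteins that bind or resemble integrins were left out. Itga1, Itga10, Itga11 and Itgb8 were not analysed here.

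The cells were C57BL/6 MEFs, and every group, control included, was given lentivirus encoding M2rtTA, which drives the delivered genes when doxycycline is present. TF group 1 also received viruses for GATA4, TBX5 and MEF2C. In TF group 2 the same 3 were joined by Mesp1 and SMARCD3, making 5. In TF group 3 those 5 were joined by MYOCD and SRF. The negative control received M2rtTA only. The delivered sequences are human apart from mouse Mesp1, and the methods of the study add valproic acid to the doxycycline medium. RNA was taken from whole cultures after 7 days of doxycycline, with 3 cultures per group that the labels call biological replicates. Every value is an average over all cells of a culture. The study asked whether factors added to the first 3 strengthen the shift of fibroblasts towards heart muscle cells.

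Integrins are receptors of one alpha and one beta chain that span the cell membrane and hold the cell to its matrix, and the alpha chain largely sets which matrix protein is bound. Laminins are cross-shaped proteins of one alpha, one beta and one gamma chain that form the sheet of the basement membrane, and nidogens tie that sheet to collagen IV. In heart and skeletal muscle each fibre is wrapped in a basement membrane and held to it by laminin receptors, whereas cultured fibroblasts mainly hold to fibronectin.

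Each of the 12 arrays gave 1 linear signal per probe set, and the signals had been brought to a common trimmed mean of 500 on every array. A probe set with a mean signal under 32 is called dim here, and 20.4% to 24.2% of all single readings on an array were under that level. All 13 fibroblast markers had group means above 32 in all 4 groups, with Col1a1 and Vim among them. A gene was represented by its brightest probe set and counted as called where limma, fitted over all 22626 probe sets, gave an adjusted p (Benjamini-Hochberg) under 0.05 and a fold change over 1.5 (n = 3 arrays in each group, moderated standard errors). The p-values measure the spread between these cultures. All values are relative to the whole signal of an array. The poly-A spikes, control RNAs added to each sample, read higher in every TF array (log2 means of 8.20 to 8.45) than in any negative control array (6.99 to 7.89). With arrays scaled to them, the median over all probe sets of the log2 change moved from 0.06, 0.05 and 0.05 to -0.91, -0.77 and -0.79 in TF groups 1, 2 and 3. Changes below are therefore changes relative to the other genes on the array, and of 24 member calls against the negative control 7 were made in the same direction under spike scaling while 9 turned in sign.

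Against the negative control, 8 members rose and 1 fell in TF group 1, 6 rose and 1 fell in TF group 2, and 8 rose with none falling in TF group 3. Over all genes, 15.1% were called higher and 8.93% lower in TF group 1 (24% in all). TF group 2 had 15.3% higher and 10.1% lower (25.4%), while TF group 3 had 14.7% higher and 9.84% lower (24.5%). These shares also stand beside every count of called markers and partners against the control below. At an unadjusted p under 0.05 and any fold change, 2 members were lower in TF group 3. For 34 members the shares called higher were 23.5% in TF group 1, 17.6% in TF group 2 and 23.5% in TF group 3. The median log2 change of the members was 0.30, 0.17 and 0.17 in TF groups 1, 2 and 3, beside 0.07, 0.06 and 0.05 for all genes. The arrays did not overlap with those of the control for 17, 15 and 13 members, beside 52.9%, 53.9% and 53.3% of all genes. These 3 comparisons share the same 3 negative control arrays. Of the 34 members 11 were called in at least 1 TF group, beside 34.5% of all genes. The 6 that rose in all 3 TF groups, beside 9.64% of all genes, were Itga6, Itga7, Itga9, Lama4, Lama5 and Nid2, and no member fell in all 3. Under spike scaling Lama5 turned in sign in all 3 TF groups, Lama4 in TF groups 1 and 3, Itga9 in TF group 1 and Nid2 in TF group 2. Of the other called members, Itga8 and Lama2 rose in TF group 1, Lama1 and Lamb1 rose in TF group 3, and Itga5 fell in TF groups 1 and 2. Itga8 in TF group 1 and Lamb1 in TF group 3 also turned in sign with the spikes. A moderated F test over the 4 groups passed for 15 members, or 15 of 34 beside 49.8% of all genes.

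**Figure D1:**
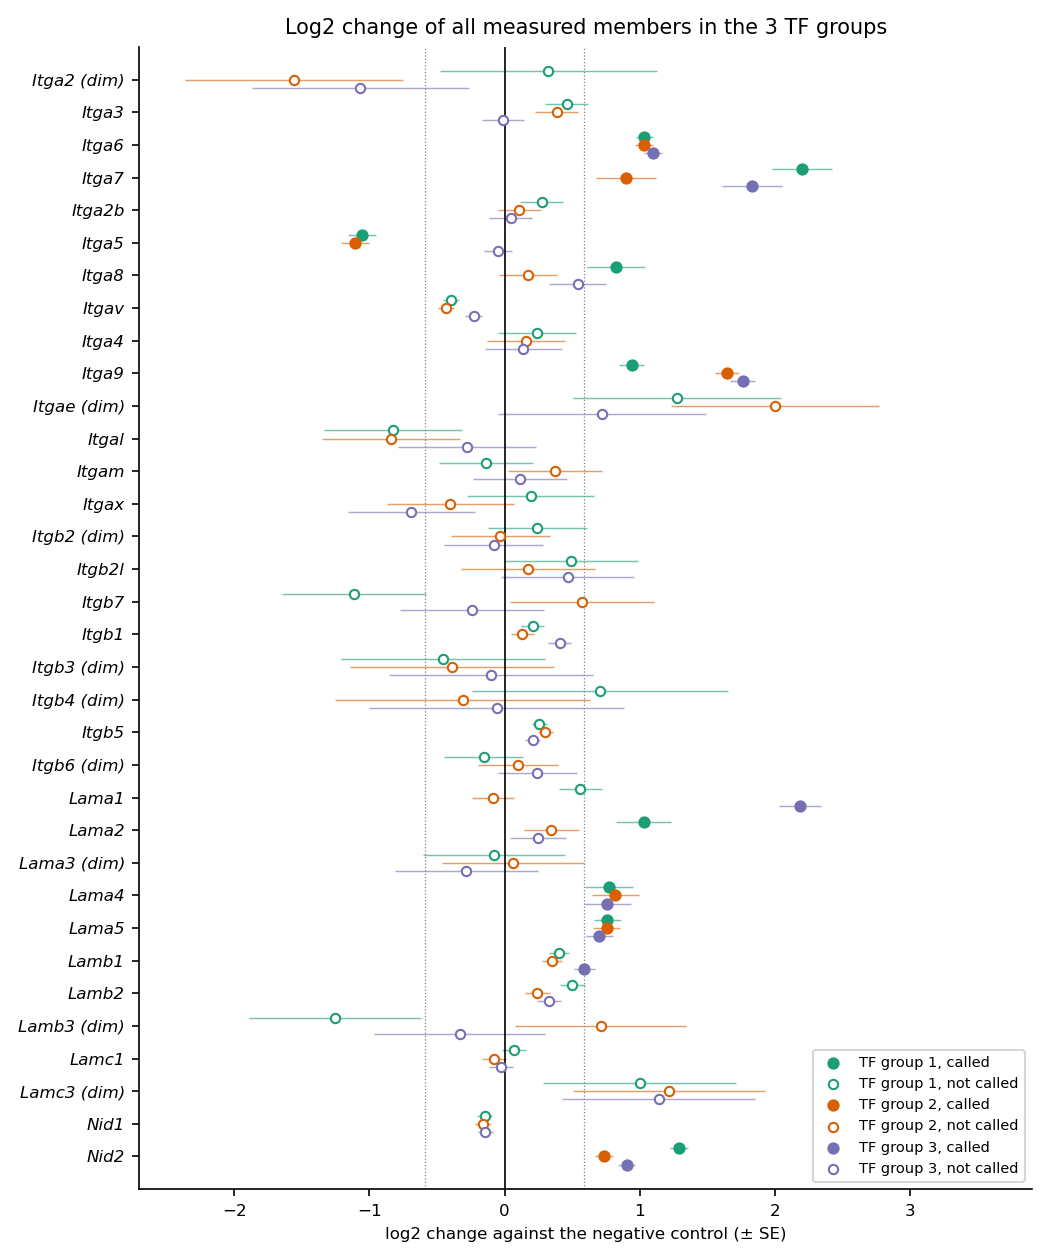
Log2 change of each of the 34 members against the negative control (x axis, log2 units, bars ± SE, n = 3 arrays per group) in TF groups 1, 2 and 3. Filled points were called, open points were not, dotted lines mark a fold change of 1.5, and the 9 members marked dim had mean signals below 32 in all 4 groups. Itga7 and Lama1 lie farthest to the right among the called points, and Itga5 is the only called gene to the left of 0.

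Of the 3 laminin-binding alpha chains, Itga6 and Itga7 rose in all 3 TF groups. Itga7 encodes alpha7, the main laminin receptor of muscle fibres. Its signal was 511, 299 and 419 in TF group 1, 185, 146 and 159 in TF group 2, 309.6, 306 and 314 in TF group 3 and 89.8, 66.1 and 112 in the negative control. Each TF array lay above every negative control array, and TF group 2 lay below both other TF groups on all of its arrays. Itga7 rose 4.59-fold in TF group 1 (log2 2.20 ± 0.22 SE, adjusted p = 4.13e-05), 1.86-fold in TF group 2 (0.89, adjusted p = 0.00946) and 3.55-fold in TF group 3 (1.83, adjusted p = 0.000132). With spike scaling its calls in TF groups 1 and 3 were made again, and that in TF group 2 was not (log2 0.08, adjusted p = 0.799).

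Itga6 encodes alpha6, a laminin receptor chain of epithelia and many stem cells that pairs with beta1 or beta4. Its signal was 1336, 1312 and 1339 in TF group 1, 1421, 1296 and 1265 in TF group 2, 1418, 1345 and 1398 in TF group 3 and 696, 626 and 627 in the negative control. The 9 TF arrays lay close together and far above the control arrays. The rise was 2.05-fold, 2.04-fold and 2.14-fold in TF groups 1, 2 and 3 (log2 1.03, 1.03 and 1.10, each ± 0.07 SE; adjusted p = 2.2e-06, 1.77e-06 and 1.34e-06). A second Itga6 probe set was called in all 3 as well, with log2 changes of 1.71, 1.59 and 1.75. Between TF groups the brightest probe set of Itga6 differed by 0.00 in TF group 2 versus TF group 1 (95% interval -0.15 to 0.15) and by 0.06 in TF group 3 versus TF group 2 (-0.08 to 0.21). Scaled to the spikes, its log2 changes against the control were 0.07, 0.22 and 0.26, none of them called.

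Itga3 encodes alpha3, a receptor for epithelial laminins, and its log2 changes of 0.46, 0.38 and -0.01 were not called. Its signals ranged over 210.5 to 277 in TF group 1, 209 to 233 in TF group 2, 153 to 199.6 in TF group 3 and 141 to 199.5 in the negative control. All arrays of TF groups 1 and 2 lay above the control arrays, and those of TF group 3 overlapped them. Itgb4, the partner of alpha6 in the hemidesmosomes of epithelia, was dim in all groups, with single arrays between 5.41 and 59.4.

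**Figure D2:**
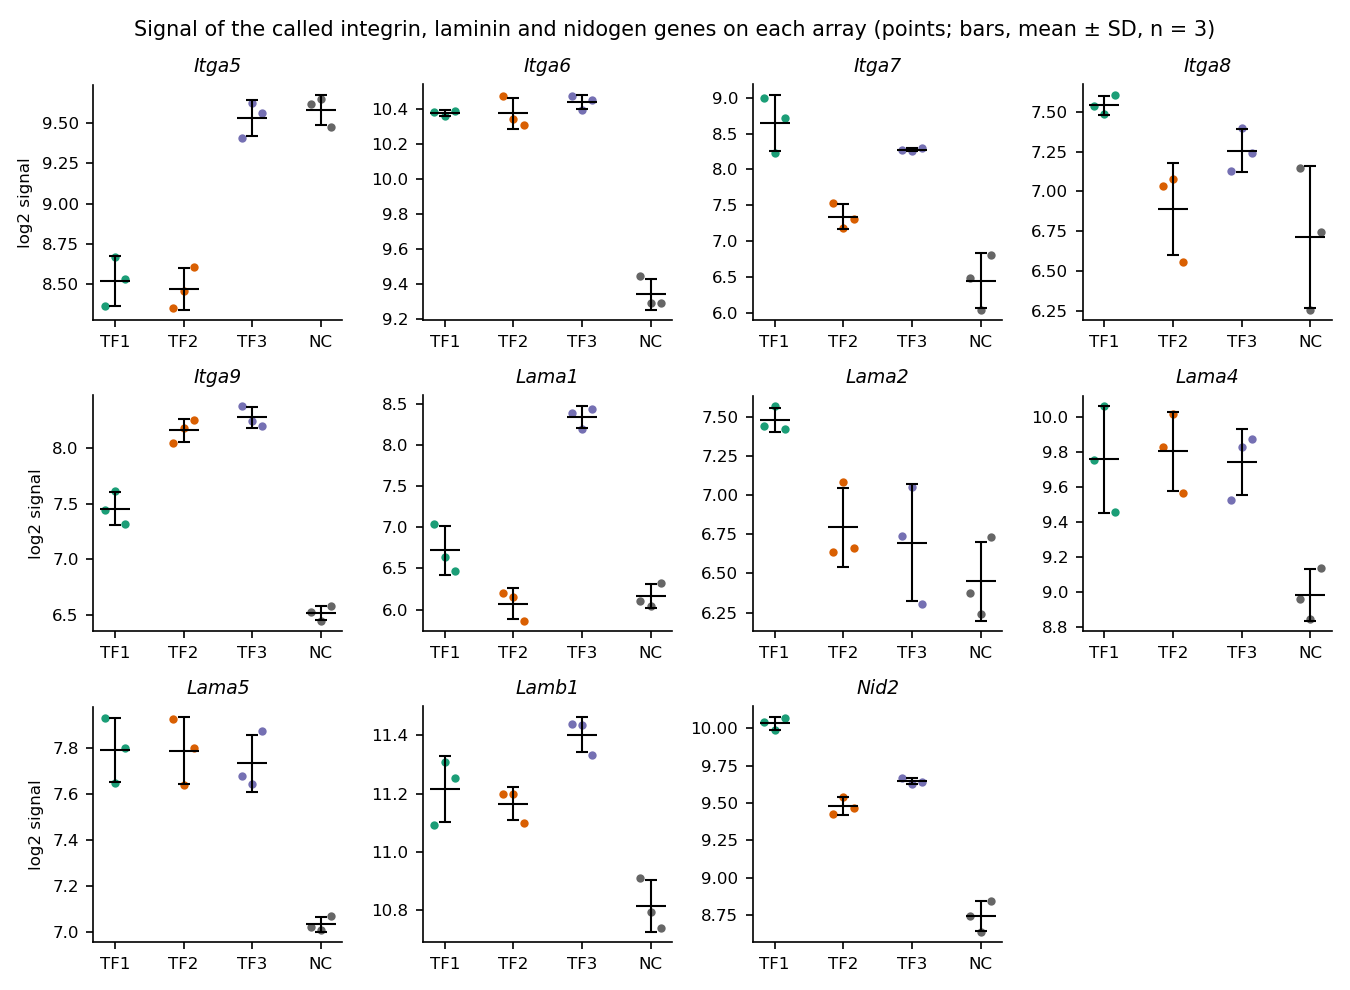
Log2 signal (y axis, own scale in each panel) of the 11 called members on every array of TF groups 1, 2 and 3 (TF1, TF2, TF3) and the negative control (NC). Points are single arrays and bars give the mean ± SD of 3 arrays. Itga6, Itga7, Itga9, Lama4, Lama5, Lamb1 and Nid2 lie above the control arrays in all 3 TF groups. Itga5 lies low in TF groups 1 and 2, and Lama1 lies high in TF group 3.

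Among the chains that recognise the RGD motif of fibronectin and related proteins, Itga5 showed a fall in 2 of the TF groups. Itga5 encodes alpha5, which with beta1 forms the classical fibronectin receptor of fibroblasts. Its signal was 329, 408 and 370.0 in TF group 1, 326, 352 and 389 in TF group 2, 679, 789.5 and 757 in TF group 3 and 786, 801 and 711 in the negative control. The arrays of TF groups 1 and 2 all lay below those of TF group 3 and the control, which overlapped each other. Itga5 fell 2.08-fold in TF group 1 (log2 -1.06 ± 0.10 SE, adjusted p = 3.31e-05) and 2.16-fold in TF group 2 (-1.11, adjusted p = 2.12e-05). In TF group 3 its log2 change was -0.05 (95% interval -0.28 to 0.19). Both falls were also called with spike scaling. A second Itga5 probe set, with means below 32 in TF groups 1 and 2 and the control, was not called, and with both probe sets averaged Itga5 was called in no comparison (log2 -0.85, adjusted p = 0.0941 in TF group 1).

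Promoter sequences were looked up because SRF, which binds CArG boxes, was among the factors of TF group 3. The table of mouse promoters (RefSeq, build GRCm38.p6, 250 bases before to 50 after a start site) held 21 of the 34 members and 6 of the 11 called ones, namely Itga5, Itga8, Itga9, Lama2, Lama5 and Lamb1. For Itga9 the start site in the table lies 104983 bases inside the annotated gene, so its window is not that of the annotated gene start. The start sites of Lama2, Lamb1, Lama5 and Itga8 lie 249, 147, 45 and 41 bases inside their annotated genes. The bases upstream of the annotated gene are shown for Itga5, which fell in TF groups 1 and 2, and for Lama5, which rose in all 3 groups, with matches to the motifs searched in capitals.
Itga5, chr15:103366792-103367041, minus strand: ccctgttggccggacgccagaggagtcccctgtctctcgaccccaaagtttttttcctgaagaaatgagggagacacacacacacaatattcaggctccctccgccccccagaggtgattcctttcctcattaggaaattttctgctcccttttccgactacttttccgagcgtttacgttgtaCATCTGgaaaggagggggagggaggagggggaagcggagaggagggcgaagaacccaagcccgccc
Lama5, chr2:180225905-180226109, minus strand: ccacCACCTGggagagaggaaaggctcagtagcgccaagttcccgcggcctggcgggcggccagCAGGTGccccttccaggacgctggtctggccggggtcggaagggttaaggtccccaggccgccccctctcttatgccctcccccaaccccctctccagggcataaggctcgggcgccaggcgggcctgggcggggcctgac
The motifs, searched on both strands, were the CArG box, the MEF2 site, GATAA for GATA factors, AGGTGT for T-box factors and CANNTG for E-box factors. The AGGTGT motif can share letters with CANNTG. The capitals are E-boxes in both sequences. In its whole window Itga5 held 2 E-boxes and none of the other motifs, and the same was true of Lama5. An E-box occurs in 72.3% of all 32851 promoters in the table. A CArG box, found in 1.63% of them, occurred in 2 members, Lama2 and one of the Itgb6 start sites. The Lama2 match (cctttaaagg, chromosome 10) lies 39 bases before the start site in the table. Both matches lie inside the annotated gene, not upstream of it. GATAA occurred in 2 members (25.4% of all promoters), AGGTGT in 4 (13.7%) and the MEF2 site in 0 (1.86%). Such matches are letters only, and no binding was measured.

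Itga8 encodes alpha8, a receptor for nephronectin in mesenchyme and smooth muscle. Its signal was 185, 179 and 194 in TF group 1, 131, 135 and 94.3 in TF group 2, 139.7, 168 and 152 in TF group 3 and 141, 76.6 and 107 in the negative control. TF group 1 stood above all control arrays, and the other groups overlapped the control. It rose 1.77-fold in TF group 1 (log2 0.82 ± 0.21 SE, adjusted p = 0.012). The log2 changes of 0.17 in TF group 2 and 0.54 in TF group 3 were not called. Itgav encodes alphav, shared by receptors for vitronectin and latent TGF-beta. Its signal was 4799 to 4935 in TF group 1, 4655 to 4949.6 in TF group 2, 5262 to 5723 in TF group 3 and 6192 to 6860.2 in the negative control. Every TF array lay below the control arrays, but its log2 changes of -0.40, -0.43 and -0.23 stayed under the fold threshold (adjusted p = 0.000587, 0.000329 and 0.014), and a second probe set read -0.05, -0.02 and 0.17.

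Itga9 encodes alpha9, which pairs with beta1 and binds tenascin-C, osteopontin and VCAM-1. Its signal was 173, 195 and 159 in TF group 1, 264, 289.7 and 305 in TF group 2, 332, 304 and 295 in TF group 3 and 91.9, 87.1 and 95.4 in the negative control. The control arrays were lowest, TF group 1 lay between, and TF groups 2 and 3 overlapped at the top. Itga9 rose 1.92-fold in TF group 1 (log2 0.94 ± 0.09 SE, adjusted p = 3.19e-05), 3.13-fold in TF group 2 (1.64, adjusted p = 7.22e-07) and 3.39-fold in TF group 3 (1.76, adjusted p = 5.71e-07). The calls in TF groups 2 and 3 were made under every alternative tried, spike scaling included. Of its other 2 probe sets, both under a mean log2 signal of 7, one was called in TF groups 2 and 3 while dim in all groups, so no fold is given, and the other was called in none (-0.16, 0.42 and 0.44). Averaged over its probe sets, Itga9 lost its call in TF group 1 (log2 0.44, adjusted p = 0.124).

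Itga4, whose alpha4 chain is the nearest relative of alpha9 and binds VCAM-1, was not called on its brightest probe set, with single arrays from 43.9 to 97.8 and log2 changes of 0.24, 0.16 and 0.14. Another Itga4 probe set, dim in the control and TF group 1, was called higher in all 3 TF groups (adjusted p = 0.0295, 0.00127 and 0.000443), so the probe sets of this gene differed in call. Vcam1, a ligand of both chains at the surface of activated endothelium and muscle progenitors, rose in TF group 3 (log2 0.96, against 0.37 in TF group 1 and -0.44 in TF group 2), and TF group 3 exceeded TF group 2 by 1.40. Tnc, which encodes the alpha9 ligand tenascin-C, fell in TF group 1 (-1.07), with -0.53 and -0.41 in TF groups 2 and 3.

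None of the 5 beta chains outside the leukocyte class was called by limma against the control, and 5 of these 15 tests had an unadjusted p under 0.05. Itgb1 encodes beta1, the partner of alpha3, alpha5, alpha6, alpha7, alpha8 and alpha9. Its signal ranged over 2801 to 2939 in TF group 1, 2637 to 2925 in TF group 2, 3236 to 3398 in TF group 3 and 2236 to 2844 in the negative control. TF group 3 lay above all control arrays, and TF groups 1 and 2 overlapped them. Its log2 changes were 0.21, 0.13 and 0.41 (± 0.09 SE), and the last had a limma adjusted p = 0.00437 with a fold change under the threshold. A second bright Itgb1 probe set read -0.04, -0.08 and 0.27, and another 0.15, 0.00 and 0.04, none of them called. Itgb5, the beta5 partner of alphav in the vitronectin receptor, had log2 changes of 0.26, 0.30 and 0.21 (± 0.06 SE), again under the fold threshold. The other Itgb5 probe sets read smaller changes of 0.02 to 0.20 over the TF groups, none of them called. Itgb3, Itgb4 and Itgb6 were dim in all groups on their brightest probe sets. A second Itgb6 probe set passed the test in TF groups 2 and 3 with both sides below 32, and no fold is given for it.

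The leukocyte chains Itgae, Itgal, Itgam, Itgax, Itgb2, Itgb2l and Itgb7 gave no call in limma in any of the 6 comparisons (2 of 42 tests at an unadjusted p under 0.05), and their single arrays lay between 3.39 and 69.8. Of 17 leukocyte markers, 5 to 7 were dim in a given group, and their summed signal was 1201 to 1227 in TF group 1, 1085 to 1211 in TF group 2, 1233 to 1325 in TF group 3 and 1102 to 1217 in the negative control. Of the 17 markers, 2, 1 and 1 rose and 2, 2 and 2 fell in TF groups 1, 2 and 3. Cd53 rose in all 3 TF groups (log2 2.21, 1.67 and 2.16). Lyz1, dim in every TF group, was at least 4.69-fold lower in each of them, with 32 taken as their level. Itga2b, the alpha chain of the platelet fibrinogen receptor, ranged from 79.4 to 121 over the 12 arrays without a call, and its partner Itgb3 was dim. The 6 platelet markers summed to 516 to 709.6 in TF group 1, 407 to 479.7 in TF group 2, 426 to 477 in TF group 3 and 988 to 1248 in the negative control. Of these, 1, 0 and 1 rose and 1, 1 and 1 fell in TF groups 1, 2 and 3, with Ppbp falling in all 3, Gp1bb rising in TF group 1 (log2 0.69) and Treml1, dim in the control, rising in TF group 3. Itga2, a collagen receptor chain, was dim as well. In RNA of whole cultures, fewer cells of a type and less RNA per cell cannot be told apart.

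Of the 5 laminin alpha chains, 4 were called in at least 1 TF group, beside the 34.5% of all genes given above. Lama1 encodes the alpha1 chain of laminin-111, the laminin of the earliest embryonic basement membranes. Its signal was 132, 99.6 and 88.9 in TF group 1, 73.9, 70.9 and 58.2 in TF group 2, 336, 293 and 348 in TF group 3 and 69.0, 66.1 and 80.1 in the negative control. TF group 3 stood far above the other groups, TF group 1 lay above the control arrays by a smaller step, and TF group 2 overlapped the control. Lama1 rose 4.54-fold in TF group 3 (log2 2.18 ± 0.16 SE, adjusted p = 4.11e-06), and this call was made under every alternative. In TF group 1 its log2 change was 0.56 (adjusted p = 0.0182), under the fold threshold, and in TF group 2 it was -0.09.

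Lama2 encodes alpha2, the laminin chain of the muscle fibre and Schwann cell basement membranes, whose loss causes a congenital muscular dystrophy. Its signal was 174, 189.8 and 172 in TF group 1, 99.7, 136 and 101 in TF group 2, 107, 133 and 79.0 in TF group 3 and 83.1, 75.8 and 106 in the negative control. Only the TF group 1 arrays lay clear of the control. Lama2 rose 2.04-fold in TF group 1 (log2 1.03 ± 0.20 SE, adjusted p = 0.00282), and its log2 changes of 0.34 and 0.25 in TF groups 2 and 3 were not called. Of 14 skeletal muscle markers, 1, 2 and 2 rose and 1, 1 and 1 fell in TF groups 1, 2 and 3. Their summed signal was 689.6 to 724 in TF group 1, 747 to 778 in TF group 2, 1021 to 1132 in TF group 3 and 1791 to 1959.7 in the negative control. These sums rest on few genes, since 8, 6 and 9 of the markers were dim in TF groups 1, 2 and 3 and 9 in the control. Acta1, 1 of the brighter ones, averaged 7.85, 7.91 and 9.19 on the log2 scale in TF groups 1, 2 and 3. Of 7 Schwann cell markers, 0 were called in TF group 1, and their summed signal was 2982 to 3109 in TF group 1, 3037 to 3324 in TF group 2, 3632 to 3854 in TF group 3 and 2165 to 2310.2 in the negative control. The part of either cell type in the Lama2 result was not tested.

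Lama4 and Lama5 encode the alpha4 and alpha5 chains, the first typical of vessels, fat and muscle and the second of many epithelia and mature vessels. The Lama4 signal was 864, 1067 and 701 in TF group 1, 907, 1034 and 758 in TF group 2, 737, 909.9 and 938 in TF group 3 and 499, 461 and 564 in the negative control. All TF arrays lay above all control arrays, with a wide spread inside each TF group. Lama4 rose by log2 0.77, 0.82 and 0.76 in TF groups 1, 2 and 3 (± 0.18 SE; adjusted p = 0.00605, 0.0042 and 0.00662). A dimmer Lama4 probe set read -0.11, 0.40 and 0.53 without a call, and the average of both lost the call in TF group 1 (log2 0.33, adjusted p = 0.0448).

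The Lama5 signal was 244, 201 and 223 in TF group 1, 244, 199 and 223 in TF group 2, 205, 200.3 and 235 in TF group 3 and 129.9, 129 and 135 in the negative control. The TF arrays overlapped one another and all lay above the control. Lama5 rose by log2 0.76, 0.76 and 0.70 (± 0.10 SE; adjusted p = 0.000236, 0.000226 and 0.000388). A dimmer probe set read 0.39, 0.21 and 0.06 with no call, and averaged with it Lama5 did not reach the fold threshold in any TF group (log2 0.57, 0.49 and 0.38). Of 12 epithelial markers, 2, 1 and 2 rose and 1, 1 and 0 fell in TF groups 1, 2 and 3, with Krt18 rising in all 3 and Krt19 falling in TF groups 1 and 2 (log2 -1.16 and -1.45), and their summed signal was 1192 to 1221 in TF group 1, 1112 to 1364 in TF group 2, 1024 to 1182 in TF group 3 and 791 to 915 in the negative control. Of 15 endothelial markers, 2, 0 and 1 rose and 1 fell in each TF group (Flt1 in all 3), and their summed signal was 1000.5 to 1101 in TF group 1, 1003 to 1081 in TF group 2, 865 to 994 in TF group 3 and 1383 to 1481 in the negative control. Their part in the rise of Itga6, Lama4 and Lama5 was not tested. Lama3, the alpha chain of the laminin of skin, was dim in all groups.

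Of the laminin beta and gamma chains, Lamb1 was the one called. It encodes beta1, the beta chain of most embryonic laminins. Its signal was 2180.2, 2536 and 2438 in TF group 1, 2352, 2347 and 2193 in TF group 2, 2777, 2769 and 2579.9 in TF group 3 and 1924, 1775 and 1705 in the negative control. Every TF array lay above the control arrays. Lamb1 rose in TF group 3, just past the fold threshold (log2 0.59 ± 0.08 SE, adjusted p = 0.000197), with 0.40 and 0.35 in TF groups 1 and 2 (adjusted p = 0.00212 and 0.00448). It dropped below the fold threshold without negative control replicate 2 or 3 or TF group 3 replicate 1 or 2 (log2 0.55 to 0.58), and likewise with arrays centred on their median (0.48) or an offset of 50 before log2 (0.58). Its other 2 probe sets were called higher in TF groups 1 (0.68 and 0.65) and 3 (0.81 and 0.81), with 0.54 and 0.57 in TF group 2.

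Lamb2, the beta2 chain of the neuromuscular junction and the kidney filter, had signals of 448 to 548 in TF group 1, 378 to 442 in TF group 2, 435 to 459 in TF group 3 and 334 to 371 in the negative control, with log2 changes of 0.50, 0.24 and 0.33 that were not called. Its TF arrays all lay above the control arrays. Lamc1, the gamma1 chain found in most laminins, ranged from 589 to 766 over the 12 arrays, with log2 changes of 0.07 (95% interval -0.13 to 0.27), -0.08 (-0.28 to 0.12) and -0.03 (-0.23 to 0.17) in TF groups 1, 2 and 3. These intervals lie within the fold threshold in either direction, but a dimmer Lamc1 probe set read -0.29, -0.30 and -0.41, also not called, with intervals reaching to -0.74, -0.75 and -0.86. Lamb3 and Lamc3 were dim in all groups.

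Of the 2 nidogens, Nid2 was called in all 3 TF groups. It had a signal of 1054, 1016 and 1075 in TF group 1, 688, 746 and 708 in TF group 2, 814, 793 and 797 in TF group 3 and 429.5, 399 and 459 in the negative control. The groups did not overlap at any point, with TF group 1 highest, then TF group 3, TF group 2 and the control. Nid2 rose 2.45-fold in TF group 1 (log2 1.29 ± 0.06 SE, adjusted p = 5.52e-07), 1.67-fold in TF group 2 (0.74, adjusted p = 1.38e-05) and 1.87-fold in TF group 3 (0.90, adjusted p = 3.81e-06). Nid1 was measured at 4488 to 4630.0 in TF group 1, 4395 to 4698 in TF group 2, 4289 to 4724 in TF group 3 and 4901 to 5115 in the negative control. Its log2 changes of -0.15, -0.16 and -0.14 were not called, although every TF array lay below the control arrays. The difference between the changes of Nid2 and Nid1 was not tested.

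**Figure D3:**
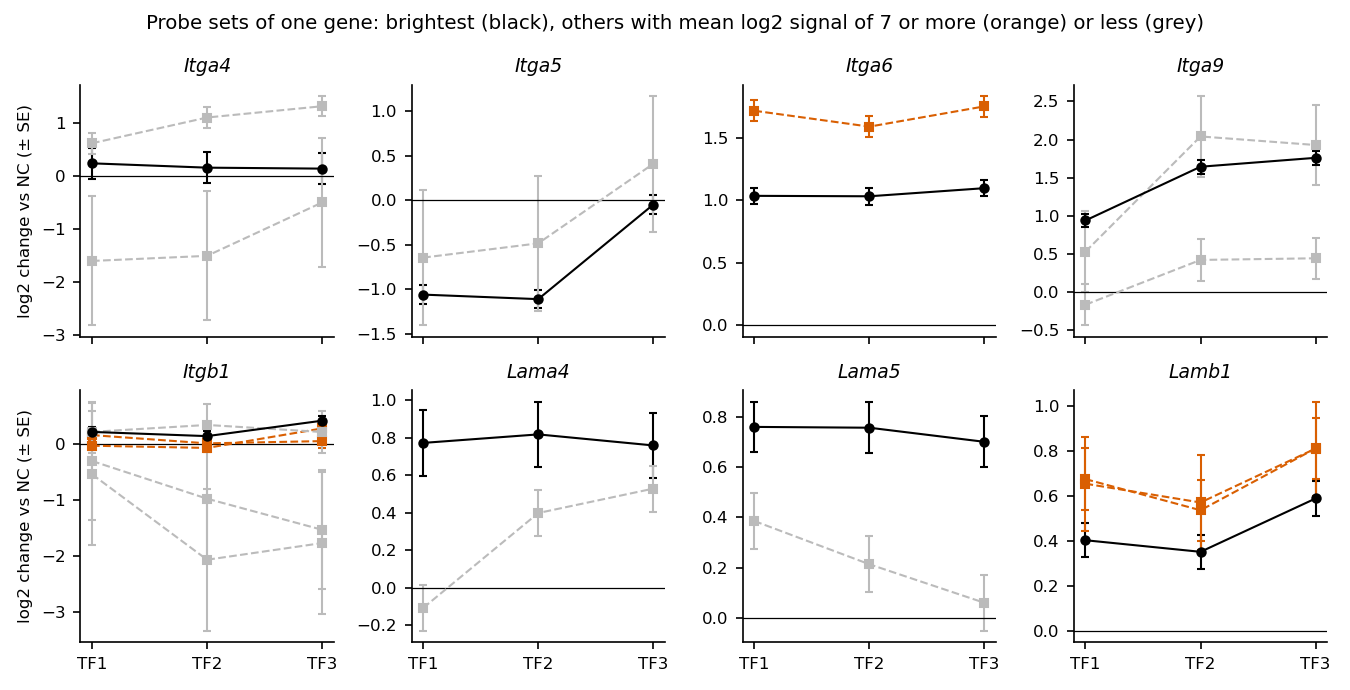
Log2 change against the negative control (y axis, ± SE, n = 3) on each probe set of 8 members in TF groups 1, 2 and 3 (TF1, TF2, TF3). Black marks the brightest probe set, orange others with a mean log2 signal of at least 7, and grey dimmer ones. The bright probe sets of Itga6 and Lamb1 rise together. Those of Itga4, Itga5, Itga9, Itgb1, Lama4 and Lama5, dimmer ones included, lie apart in at least 1 TF group.

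Over the 15 members with more than 1 probe set there were 26 other probe sets, of which 11 had a mean log2 signal of at least 7. At these 11, 5 comparisons with the control concerned a gene that was called on its brightest probe set, and all 5 were called in the same direction. They belong to Itga6 and Lamb1.

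The TF groups were also compared with each other. The number of viruses rose with the number of factors. The effect of the added factors and that of more virus therefore cannot be told apart, here or against the control. With Mesp1 and SMARCD3 added (TF group 2 versus TF group 1), 1 member was higher and 2 were lower, beside 2.08% of all genes higher and 1.78% lower (3.87% in all). With MYOCD and SRF added to these (TF group 3 versus TF group 2), 3 members were higher and 0 lower in limma (1 lower at an unadjusted p under 0.05), beside 2.32% and 1.7% (4.03%). In TF group 3 versus TF group 1, 3 were higher and 1 lower, beside 3.26% and 3.05% (6.31%). The 5 genes concerned, beside 9.09% of all genes, were Itga5, Itga7, Itga9, Lama1 and Lama2. At an unadjusted p under 0.05 in the unmoderated fit and the same fold change, 7 members differed between TF groups 2 and 1.

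Lama1 showed the largest called difference. In TF group 3 it exceeded TF group 2 by 4.83-fold (log2 2.27 ± 0.16 SE, adjusted p = 4.33e-05) and TF group 1 by 3.08-fold (1.62, adjusted p = 0.000195). Both calls were made under every alternative. Itga5 in TF group 3 exceeded TF group 2 by 2.09-fold (log2 1.06 ± 0.10 SE, adjusted p = 0.000324) and TF group 1 by 2.01-fold (1.01, adjusted p = 0.000271). With spike scaling the difference of Itga5 between TF groups 3 and 2 was 1.04 but no longer called (adjusted p = 0.0853), while that between TF groups 3 and 1 was called. TF groups 2 and 1 differed in Itga5 by -0.05 (95% interval -0.28 to 0.18).

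Itga7 in TF group 2 was below TF group 1 by 2.47-fold (log2 -1.30 ± 0.22 SE, adjusted p = 0.00803) and in TF group 3 above TF group 2 by 1.91-fold (0.93, adjusted p = 0.0328). The second of these calls was lost when any array of TF groups 2 or 3, or TF group 1 replicate 3, was left out (log2 0.86 to 1.03, adjusted p = 0.0509 to 0.108). TF group 3 and TF group 1 differed by -0.37 (95% interval -0.87 to 0.13). Itga9 exceeded its TF group 1 level by 1.63-fold in TF group 2 (log2 0.70 ± 0.09 SE, adjusted p = 0.00186) and by 1.77-fold in TF group 3 (0.82, adjusted p = 0.000435). With spike scaling both Itga7 differences (log2 -1.15 and 0.91, adjusted p = 0.0758 and 0.219) and both Itga9 differences (0.86 and 0.95, adjusted p = 0.117 and 0.0505) lost their calls but kept their direction. The fit shares its estimate of the spread with the control arrays. Their spikes ranged over 6.99 to 7.89 on the log2 scale, against 8.20 to 8.45 in the TF arrays. The part of that range in the lost calls was not tested. An offset of 50 before log2 left Itga9 in TF group 2 under the fold threshold (0.57). TF groups 3 and 2 differed in Itga9 by 0.12 (-0.09 to 0.32).

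Lama1 in TF group 2 was also below TF group 1 by 1.57-fold (log2 -0.65, adjusted p = 0.0409), a call that was lost in 11 of the 12 fits that left 1 array out, the exception being the fit without TF group 1 replicate 3 (log2 -0.48 to -0.77 over the 12, highest adjusted p = 0.13). Lama2 in TF group 3 was below TF group 1 by 1.72-fold (log2 -0.78 ± 0.20 SE, adjusted p = 0.0342), and this was lost without any 1 of the TF group 1 arrays or without TF group 3 replicate 1 or 3 (log2 -0.58 to -0.81, adjusted p = 0.0775 to 0.102). Both calls were also lost with spike scaling (log2 -0.49 for Lama1 and -0.65 for Lama2), with the offset of 50 (-0.41 and -0.56) and when only the 2 groups compared were fitted (adjusted p = 0.147 and 0.0831), and that of Lama1 in an unmoderated linear model (adjusted p = 0.0511). Nid2 in TF group 2 differed from TF group 1 by -0.56 on the log2 scale (adjusted p = 0.000972), under the fold threshold.

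**Figure D4:**
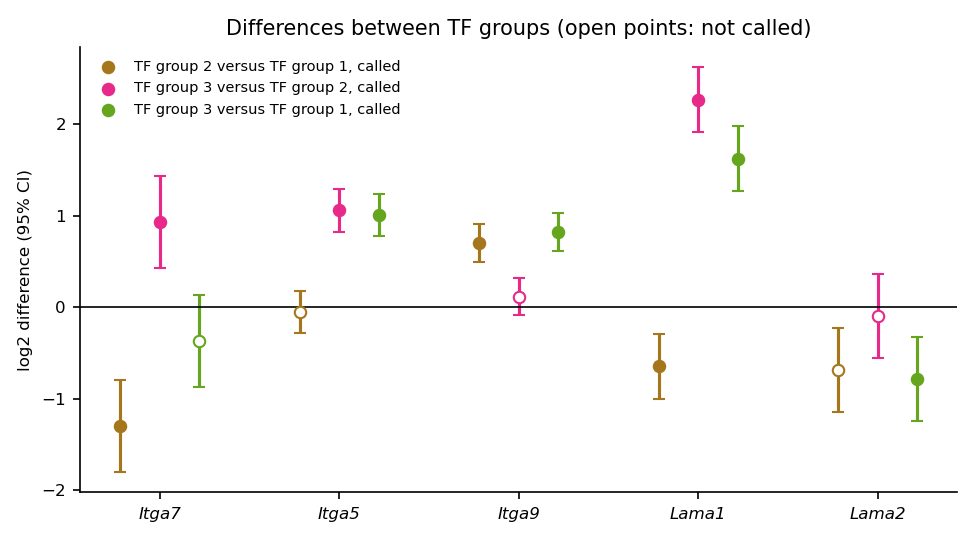
Log2 difference between TF groups (y axis, bars 95% confidence intervals, n = 3 arrays per group) for the 5 members called in at least 1 of these comparisons. Filled points were called and open points were not. The interval of Lama1 lies highest in TF group 3 versus TF group 2, and Itga5 lies near 0 in TF group 2 versus TF group 1.

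Smooth muscle markers were also higher in TF group 3, where Lama1 and Itga5 exceeded both other TF groups. Of 10 such genes, 0 rose and 4 fell in TF group 1, 1 rose and 3 fell in TF group 2, and 4 rose with 0 falling in TF group 3. Their summed signal was 25209 to 26833 in TF group 1, 24839 to 27826 in TF group 2, 43144 to 44328 in TF group 3 and 31858 to 36045 in the negative control. Myh11, the myosin of smooth muscle, rose in TF group 3 by 5.60 on the log2 scale, against -0.03 in TF group 1 and 0.41 in TF group 2. Of the 11 cardiac markers, 6, 7 and 9 rose and 1, 0 and 0 fell in TF groups 1, 2 and 3. They summed to 3484 to 3580.2 in TF group 1, 5265 to 5514 in TF group 2, 11101 to 12173 in TF group 3 and 466 to 661 in the negative control. In TF group 3 versus TF group 2, 7 were higher and 1, Mybpc3, was lower (log2 -0.93), beside 2.32% and 1.7% of all genes. Of the fibroblast markers, 2 rose and 2 fell in TF group 1, 1 rose and 5 fell in TF group 2, and 0 rose and 6 fell in TF group 3, with summed signals of 63221 to 66395 in TF group 1, 49949.7 to 52378 in TF group 2, 47657 to 48569.9 in TF group 3 and 59581 to 62408 in the negative control. The part of these cell types in the member results was not tested.

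Genes that work with the members were counted from lists of partners. Of all genes, 15.1%, 15.3% and 14.7% rose and 8.93%, 10.1% and 9.84% fell in TF groups 1, 2 and 3. Of 29 focal adhesion adaptors measured, 2 rose and 5 fell in TF group 1, 2 rose and 4 fell in TF group 2, and 5 rose and 1 fell in TF group 3. Their median log2 change was -0.33, -0.21 and -0.01, beside 0.07, 0.06 and 0.05 for all genes. Ptk2b, a kinase of the focal adhesion kinase family, rose 2.85-fold, 2.83-fold and 3.25-fold in TF groups 1, 2 and 3, and the adaptor Lims1 fell in all 3 (log2 -0.77, -0.94 and -0.63). Fermt2, which encodes the integrin activator kindlin-2, fell in TF groups 1 and 2 (-0.69 and -0.62), as did Zyx (-0.78 and -0.87) and Tgfb1i1 (-0.93 and -1.02). In TF group 3 these 3 read -0.20, -0.35 and -0.51 and were not called. In TF group 3 versus TF group 2, 2 adaptors were higher and 0 lower, beside 2.32% and 1.7% of all genes. The 2 adaptors were Lims2 (1.33) and Csrp1 (0.86), named after their values were seen.

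Of 24 basement membrane partners, 4 rose and 2 fell in TF group 1, 5 rose and 4 fell in TF group 2, and 4 rose and 3 fell in TF group 3. The median log2 change was 0.11, 0.11 and 0.12. Col4a5, a collagen IV chain, rose in all 3 groups (1.20, 1.45 and 0.93), and Agrn, which encodes the laminin-binding proteoglycan agrin, in TF groups 1 and 2 (1.05 and 1.10). Egfl6, a basement membrane protein that binds alpha8, fell in all 3, with log2 changes of -0.74 and -1.91 in TF groups 1 and 2 and a level at least 12.5-fold lower in TF group 3, where it was dim. Fbln1, a laminin and nidogen ligand, rose in TF group 2 (1.20) and in TF group 3 was below TF group 2 by 2.83-fold. Smoc1 and Smoc2, both matricellular proteins of basement membranes, fell in TF group 2 (-1.29 and -1.04). The lower Smoc2 level was not confined to TF group 2, as it was below TF group 1 in TF groups 2 and 3 (-1.02 and -0.65). Smoc1 in TF group 3 was above TF group 2 (0.71).

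Of 31 integrin ligands, 5 rose and 1 fell in TF group 1, 5 rose and 3 fell in TF group 2, and 5 rose and 3 fell in TF group 3. Of all genes, 15.1%, 15.3% and 14.7% rose and 8.93%, 10.1% and 9.84% fell in these groups. Icam1, a ligand of leukocyte integrins, rose in all 3 (2.49, 2.60 and 1.85). The collagen VI chains split, with Col6a3 rising in TF groups 2 and 3 (1.13 and 0.91) and Col6a1 (-0.87 and -0.84) and Col6a2 (-0.87 and -0.87) falling there. Of 14 membrane proteins that associate with integrins, 3 rose and 1 fell in TF group 1, 2 rose and 3 fell in TF group 2, and 4 rose and 2 fell in TF group 3. Cd151, a tetraspanin that binds the laminin receptors alpha3, alpha6 and alpha7, rose in all 3 (0.60, 1.06 and 1.15), as did Cd82 (1.29, 1.03 and 0.70). Plaur, the urokinase receptor, fell in all 3 (-1.91, -1.89 and -1.37).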

How the data were processed

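RNA of 12 MEF cultures was hybridized to a mouse 3′ expression array. The authors deposited 1 linear intensity per probe set and array. RMA and Partek appear in the submitters' processing notes with no version, but the intensity values are linear with a trimmed mean of 500, so the method behind them is not known and could affect low signals most. The intensities were taken to log2 in R 4.3.3, with 64 control probe sets left out, and limma 3.58.1 (lmFit, contrasts, eBayes) fitted 1 mean per group over the 22626 remaining probe sets. P-values were adjusted by Benjamini and Hochberg over all of them in each of 6 comparisons. Each of 12393 genes was represented by its brightest probe set with a single symbol, and 2246 probe sets without one were tested but not named. The steps were tested on simulated data.

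The members and lists were chosen with earlier results of these data known. Members called with a mean of at least 32 in 1 group are given array by array, and up to 4 called genes per partner list and direction were eligible to be named. Alternatives were other scalings, low-value rules, variance models, thresholds, probe set rules, a replicate block and each array left out in turn. Promoter sequences and start sites came from RefSeq (GRCm38.p6). The number of arrays limits the precision.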

Additional observations from a re-analysis of the deposited data

Results flagged for a closer look

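Signals outside the comparisons of genes differed between the TF groups and the negative control. The 12 poly-A spike probe sets, which read control RNAs added to each sample, averaged 8.30 on the log2 scale over the 9 TF arrays and 7.43 over the 3 negative control arrays, a difference of 0.87, and the ranges did not overlap. The 3 probe sets for 18S ribosomal RNA averaged 12.3 in the TF arrays and 11.1 in the negative control arrays, a difference of 1.19, again with no overlap. How either difference bears on the members was measured only for the spikes, by scaling the arrays to them.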

How the results depend on the processing

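Scaled to the poly-A spikes, 11 members were called in TF group 2 versus the negative control (1 higher and 10 lower), 13 in TF group 3 (3 higher and 10 lower) and 12 in TF group 1 (1 higher and 11 lower). Between TF groups 0 members were then called in TF group 2 versus TF group 1 by limma, 1 in TF group 3 versus TF group 2 and 2 in TF group 3 versus TF group 1. Of 102 member changes against the control 49 turned in sign, of which 33 were called with neither scaling (-0.77 to -0.10 with the spikes). The 16 called with at least one of them were -0.79 for Itga2b in TF group 3, -0.14 and -0.64 for Itga8 in TF groups 1 and 2, -0.026 for Itga9 in TF group 1, -0.76 and -0.68 for Itgb1 in TF groups 1 and 2, -0.71 and -0.63 for Itgb5 in TF groups 1 and 3, -0.19 and -0.079 for Lama4 in TF groups 1 and 3, -0.21, -0.057 and -0.14 for Lama5 in TF groups 1, 2 and 3, -0.25 for Lamb1 in TF group 3, -0.89 for Lamc1 in TF group 1 and -0.077 for Nid2 in TF group 2. This scaling lowers every TF array relative to the control arrays by construction. Of all probe sets called in TF groups 1, 2 and 3, 60.1%, 57.9% and 59.2% were higher, against 45.7%, 47.6% and 46.7% with arrays centred on their median and 3.65%, 6.25% and 5.38% with the spikes. With no minimum fold change 15 members were called in TF group 1. With both thresholds stricter (0.01 for the adjusted p, 2 for the fold change), the counts were 5, 3 and 4 in TF groups 1, 2 and 3 versus the control, 1 in TF group 2 versus TF group 1 and 2 in TF group 3 versus TF group 1. The mean of the probe sets of a gene gave 5 members in TF group 1, and an offset of 50 before log2 gave 1 in TF group 2 versus TF group 1, where an unmoderated linear model at an unadjusted p under 0.05 gave 7. Between TF groups the lost calls kept their direction and are given with their genes. Lama5 missed the fold threshold with the offset in TF groups 2 and 3 and with quantile normalization in TF group 3. The cause of the other shifts was not tested.

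Leaving out each array in turn gave 9 to 11, 7 to 8 and 7 to 9 members in TF groups 1, 2 and 3 versus the control, 2 to 4 in TF group 2 versus TF group 1, 2 to 3 in TF group 3 versus TF group 2, 3 to 4 in TF group 3 versus TF group 1 and 14 to 16 in the F test. Of 34 member calls over the 6 comparisons, 30 were made in every such fit, and the other 4 concern Itga7, Lama1, Lama2 and Lamb1 as given above. No shared deviation of same-numbered cultures was seen, as deviations of 18 same-numbered pairs correlated at -0.023 to 0.051 and 0 of them were over 0.1. Whether the numbers mark a pairing in the design cannot be told from these correlations. With the replicate block the counts were 9, 7 and 8 versus the control and 2, 3 and 3 between TF groups, with 2 calls lost, Lama1 in TF group 2 versus TF group 1 (adjusted p = 0.0648) and Lama2 in TF group 3 versus TF group 1 (0.0561).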
